A study of Mus musculus with 3 samples.

Results

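From the 41743 gene symbols in the deposited tables, 46 genes for proteins that license replication origins, unwind DNA or copy it at the fork were taken by name. They are a chosen list, and other origin and fork genes appear in further lists below. All 46 are listed, and all 46 passed the filter on low counts, as did 12478 genes in all. The measurement was RNA immunoprecipitation followed by sequencing (RIP-seq), in which an antibody pulls a protein out of a cell lysate and the RNA that comes with it is counted per gene. The cells were K7M2, a mouse osteosarcoma line, in which the ezrin locus had been disrupted by CRISPR/Cas9 and Ezrin T567A cDNA then introduced by stable transfection, so both groups share the genotype Ezrin -/- with Ezrin T567A and had no treatment. Ezrin links the plasma membrane to actin, and the T567A change removes a threonine whose phosphorylation opens the protein. Anti-ezrin antibody gave 2 libraries, named here ezrin replicates 1 and 2, and 1 library from normal mouse IgG is the background. The labels do not say how the transgene is driven, whether the line is 1 clone, or if each ezrin library had its own culture. The p-values therefore rest only on spread between these samples, which may be technical. As IgG has 1 library, that spread is the one between the 2 ezrin libraries. The edgeR fit pooled it over genes, so an edgeR p-value does not measure the spread of its own gene.

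DNA replication starts at origins bound by the origin recognition complex (ORC), onto which Cdc6 and Cdt1 load the ring-shaped MCM2-7 helicase. The kinase Cdc7 with its activator Dbf4, and then Cdc45 and the GINS proteins, turn the loaded ring into the working helicase. DNA polymerase alpha with primase lays down primers, the clamp loader RFC places the sliding clamp PCNA on them, and DNA polymerases delta and epsilon extend them. In dividing cells many of these messages rise before S phase under E2F transcription factors, which makes them common markers of proliferation in tumours.

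The libraries held 19676595 and 16196329 counts for ezrin and 10124580 for IgG. Protein-coding genes took 97.0% and 97.5% of the ezrin counts and 74.1% of the IgG counts, while the genes Gm26917 and Gm42418, which are known to collect ribosomal RNA reads, took 0.122%, 0.198% and 16.5%. Ezr, the targeted gene, had 7003, 5879 and 1479 counts in the same order, and because all groups share the knockout and the transgene, which gene-level counts cannot separate, this checks no label. Of 9 osteoblast and osteosarcoma markers, summed at 4623 and 3832 CPM (counts scaled to library size) in ezrin and 2088 in IgG, the late bone markers Sp7, Bglap and Ibsp had at most 1 count in any library. Col1a2 gave most of that sum and was called higher by edgeR (log2 fold 1.13), as were Spp1 (1.14) and Sparc (0.73). Runx2 (−0.73) and Alpl (−1.50) were called lower, and Col1a1 (0.34) was not called. Of 6 macrophage markers, summed at 983 and 902 against 1166 CPM, the receptor Csf1r gave nearly all the counts, and Ptprc, Adgre1 and C1qa had 0. The part that these differences play in the results was not tested. With only protein-coding genes in the table, 31 members were called higher and 2 lower, with a median log2 fold of 0.95.

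Messages of the replication machinery were mostly more abundant in the ezrin libraries than in IgG. Together the 46 genes held 0.60% of counts in ezrin replicate 1 (95% exact Clopper-Pearson interval 0.597 to 0.604) and 0.612% in replicate 2 (0.608 to 0.616), against 0.259% in IgG (0.256 to 0.262). Among protein-coding counts alone the shares were 0.619%, 0.627% and 0.349%. These intervals, like all others here, cover counting error only. Both groups came from the same K7M2 derivative, and the series has no input library. The shares therefore compare what each antibody recovered, and the level of a message in the cells was not measured.

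With edgeR (quasi-likelihood test, Benjamini-Hochberg adjustment over all genes tested), 31 of the 46 genes were higher in ezrin, where 19.0% of all genes were called higher. The test called 1 gene lower, where 17.4% of all genes were lower, and it did not call 14. On log2(RPKM + 1) with limma, a scale on which the median of all genes was higher by 0.24, 29.9% of all genes were called higher and 7.73% lower, with 35 and 0 of the members. At least 2-fold higher were 22 of the 46, against 9.83% of all genes. The median log2 fold was 0.97 for the members and −0.02 for all genes tested, and the members' median log2 ratio to IgG, with 1 CPM added to both sides, was 0.88 in ezrin replicate 1 and 0.97 in replicate 2. In CPM scaled by TMM (a correction for library composition), both ezrin libraries lay above IgG for 41 genes (42.6% of all genes), both lay below it for 4 (44.3% of all genes), and for Orc4 alone they lay on either side.

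**Figure D1:**
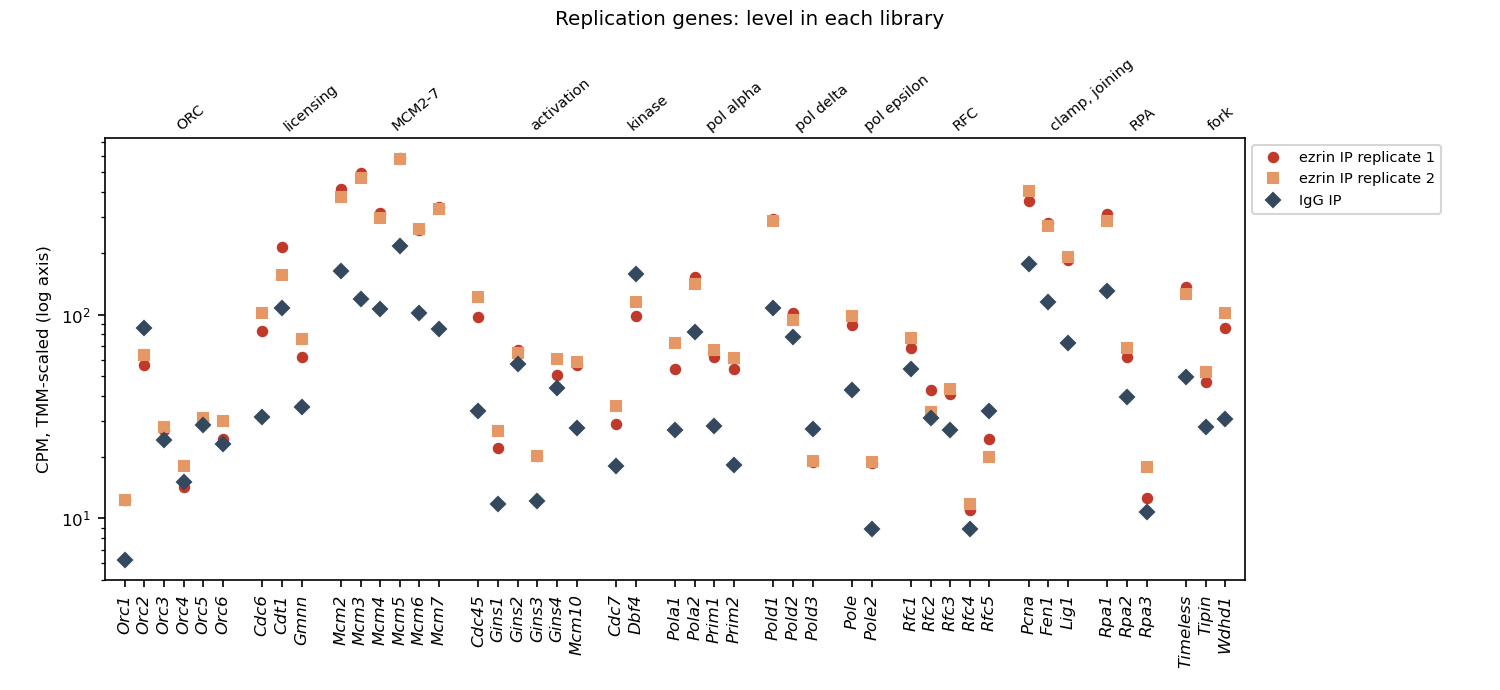
Level of each of the 46 genes in CPM scaled by TMM on a log axis, by complex, with 1 point per library. Both ezrin libraries stand above IgG for every gene of MCM2-7, and below IgG for Orc2, Dbf4, Pold3 and Rfc5.

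RefSeq promoter windows of the members (GRCm38.p6, 250 bases before to 50 after the start) were searched for E2F-type letters. The letters searched, on both strands, were TTTCCCGC, TTTGGCGC, TTTCGCGC and TTTGCCGC. Windows of 37 of the 46 members were found, and 15 of these genes (40.5%) had a match, against 575 of 17491 protein-coding genes (3.29%). A match was present for 13 of 25 members called higher and for 2 of 11 not called, while Dbf4, the member called lower, had none. Counted by window of this length, 15 of 46 member windows and 2.26% of all 32851 windows held a match. RIP-seq does not measure promoters, so a match is only a description of the letters there. The stretches below show matches that lie outside every annotated gene span, with the matched letters in capitals and the rest in lower case, 5′ to 3′ on the gene's strand.
Mcm5, chr8:75109334-75109393, plus strand: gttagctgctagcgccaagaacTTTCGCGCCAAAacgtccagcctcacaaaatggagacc
Mcm6, chr1:128359719-128359778, minus strand: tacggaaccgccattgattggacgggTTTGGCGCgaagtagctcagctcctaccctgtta
Gins3, chr8:95633492-95633551, plus strand: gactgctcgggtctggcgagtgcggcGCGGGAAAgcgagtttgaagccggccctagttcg
Rfc3, chr5:151651209-151651244, minus strand: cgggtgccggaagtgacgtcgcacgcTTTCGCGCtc

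In Mcm5 a pair of matches overlaps, so its capitals run on past 8 letters, and the matches begin 153 and 149 bases before the start of this window's transcript, which lies 41 bases inside the gene's annotated span. The matches of Mcm6, Gins3 and Rfc3 begin 47, 41 and 10 bases before the start. All 4 genes were called higher, Rfc3 as the only called subunit of its complex, but the rule on gene spans left only these to show. Orc3 and Pold3 also had a match and were not called.

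The helicase MCM2-7 had the highest median fold of the 12 groups of members, at 1.48 on the log2 scale, and all 6 subunits were called higher. After cyclic loess it came second, at 1.15, to the fork protection and tethering genes, at 1.25. Mcm3 (chr1:20802966-20820312 in GRCm38.p6) stood at 494 and 467 CPM in the ezrin libraries and 120 CPM in IgG. Its mean of 480.3 ± 19.3 CPM (SD, n = 2) was 4.01-fold above IgG (log2 fold 2.0, SE 0.25, edgeR adjusted p = 9.68e-14). The ezrin libraries were close to each other and far from IgG.

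Mcm7 followed at 338 and 331 against 85.3 CPM, a log2 fold of 1.97. Mcm2, whose protein bears a histone-binding tail, had the smallest fold of the 6, at 413 and 379 against 163 CPM (log2 fold 1.28, SE 0.24, edgeR adjusted p = 1.73e-06). Mcm4 (1.53), Mcm5 (1.42) and Mcm6 (1.35), the remaining parts of the ring, lay between them on the log2 scale. For each of the 6 subunits the ratio to IgG in ezrin replicate 1 and that in replicate 2 differed by less than the SE of the fit.

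Levels per length, as deposited RPKM (reads scaled by gene length and library size), differed between the subunits of this ring. The lengths used are not stated by the sources. Inferred from count over RPKM, they ran from 3589 bases for Mcm4 to 6956 for Mcm2. The order of genes per length, here and below, depends on these lengths. Mcm5 was the highest in every library, at 123, 125 and 35.3 RPKM in ezrin replicates 1 and 2 and IgG. The lowest was Mcm6 in replicate 1 (46.5 RPKM), Mcm2 in replicate 2 (46.9 RPKM) and Mcm7 in IgG (12.5 RPKM). Highest over lowest was 2.65, 2.66 and 2.83 in the same order, so the 6 messages spanned a similar range in each library while all of them stood higher in ezrin.

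Of ORC, onto which this ring is loaded, 1 of 6 subunits was called higher, close to the 19.0% of all genes called higher. The median log2 fold of ORC was 0.15. Orc1, the largest subunit and an ATPase, had 247 and 205 counts in the ezrin libraries and 60 in IgG, or 12.3 and 12.2 against 6.27 CPM (log2 fold 0.97, SE 0.33, edgeR adjusted p = 0.013). DESeq2 did not call it (adjusted p = 0.137).

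Orc2, a core subunit, was the highest of ORC per length in every library and pointed the other way, at 56.5 and 63.1 against 86.3 CPM. Its log2 fold of −0.53 (SE 0.24) missed the threshold (edgeR adjusted p = 0.068), but it passed on the lower side after cyclic loess (limma adjusted p = 0.0321) and when genes under a mean of 10 CPM were left out (edgeR adjusted p = 0.0187). Orc3 (0.19), Orc4 (0.10), Orc5 (0.09) and Orc6 (0.24) were within 1 SE of zero and not called. The Orc4 libraries at 14.3 and 18.0 CPM straddled the 15.0 CPM of IgG. Of the 6 genes, Orc1 overlaps Prpf38a by 3632 bases and Orc4 overlaps Mbd5 by 3404 bases in the RefSeq annotation of GRCm38.p6, and since the sources used here do not give the counting's use of strand, their counts may include reads of those genes.

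Messages of the factors that load the ring and of the protein that blocks loading were all higher. Cdc6, the loading ATPase, stood at 83.3 and 102 against 31.6 CPM (log2 fold 1.55, SE 0.27, edgeR adjusted p = 1.34e-07). Cdt1, its partner in loading, differed most between the ezrin libraries, at 215 and 156 CPM, with both above the 108 CPM of IgG (log2 fold 0.78, SE 0.24, edgeR adjusted p = 0.00629). After cyclic loess Cdt1 was not called (limma adjusted p = 0.0805). Gmnn encodes geminin, which binds Cdt1 and prevents a repeat of licensing, and its log2 fold was 0.97.

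Of the genes that activate the loaded helicase, 4 of 6 were called higher and the median log2 fold was 0.90. Cdc45, a helicase subunit that joins at firing, reached 97.3 and 122 against 33.8 CPM (log2 fold 1.70, SE 0.27, edgeR adjusted p = 6e-09). Mcm10, which helps the assembled helicase start, was at 1.06. The 4 GINS genes encode a single 4-part complex, and their log2 folds ran from 0.21 to 1.05.

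Gins1 (log2 fold 1.05) and Gins3 (0.74) were called, whereas Gins4 (0.35) and Gins2 were not. Gins4 passed on log2(RPKM + 1) (limma adjusted p = 0.0284). Gins2 stood at 66.8 and 64.7 against 57.0 CPM (log2 fold 0.21, SE 0.25, edgeR adjusted p = 0.541). Gins3 lay near the threshold, with an edgeR adjusted p = 0.0282, and was not called by DESeq2 (adjusted p = 0.163) or when genes under a mean of 10 CPM were left out (edgeR adjusted p = 0.0765).

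The kinase that triggers firing gave its 2 genes opposite directions. Cdc7, the catalytic subunit, stood at 28.9 and 35.5 against 18.1 CPM (log2 fold 0.83, SE 0.27, edgeR adjusted p = 0.00857), and DESeq2 left it above the threshold (adjusted p = 0.0621). Dbf4 (chr5:8396969-8422725), the regulatory subunit without which Cdc7 is inactive, stood at 98.2 and 116 against 157 CPM (log2 fold −0.56, SE 0.23, edgeR adjusted p = 0.0474). It was the only member called lower, just inside the threshold, and the call was lost under 5 of 8 alternatives, with adjusted p between 0.0562 and 0.595.

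**Figure D2:**
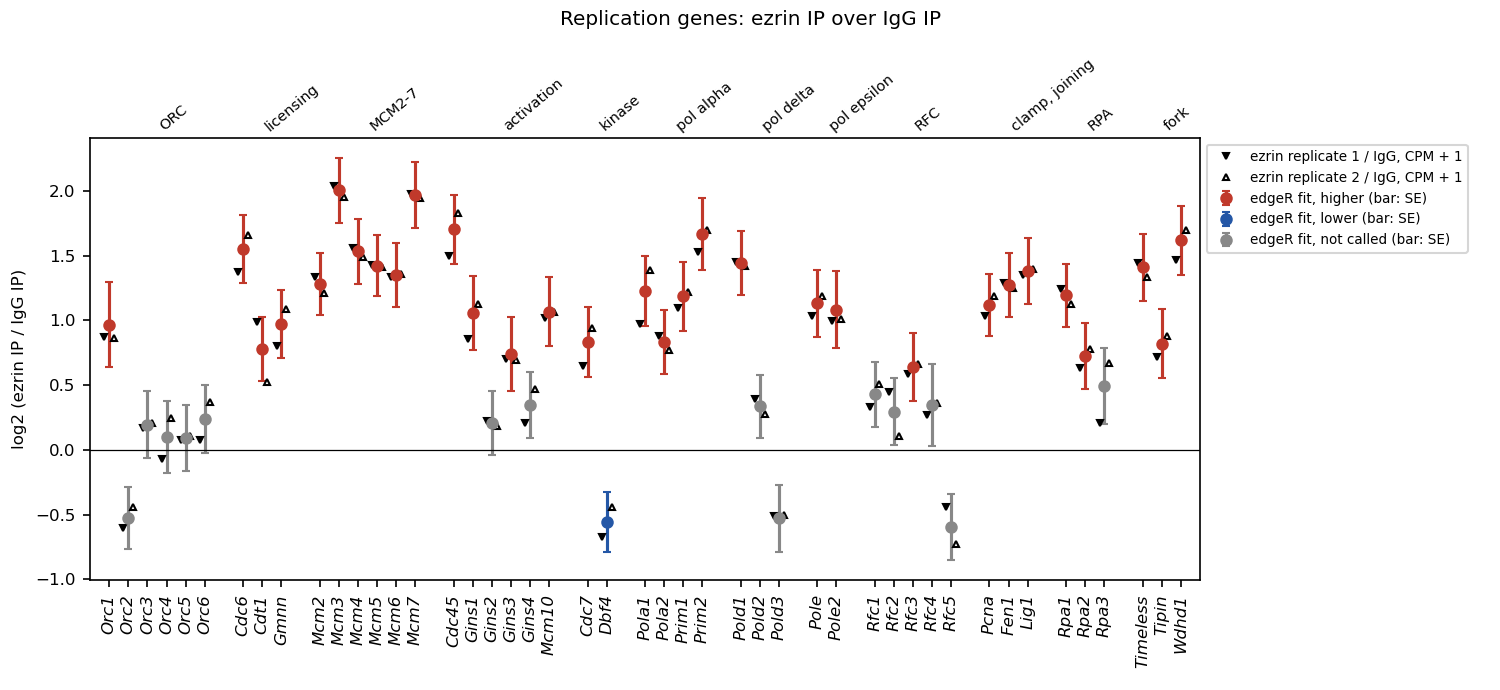
Log2 fold of ezrin over IgG for each of the 46 genes, by complex: large points are edgeR's fit with its SE, and triangles are each ezrin library over IgG with 1 CPM added to both sides. All MCM2-7 subunits lie between 1.28 and 2.0, while ORC and RFC each have 1 called subunit, where 19.0% of all genes were called higher.

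Messages of all 4 subunits of DNA polymerase alpha-primase were called higher, with a median log2 fold of 1.21. Prim2, the large primase subunit, had the highest fold, at 54.2 and 61.2 against 18.2 CPM (log2 fold 1.66, SE 0.28, edgeR adjusted p = 6.68e-08). Pola2, the accessory subunit, had the lowest, at 152 and 142 against 82.4 CPM (log2 fold 0.84, SE 0.25, edgeR adjusted p = 0.00369). The catalytic subunits Pola1 (1.23) and Prim1 (1.19) lay between.

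Messages of DNA polymerase delta, which copies mainly the lagging strand, were split. Pold1, its catalytic subunit, stood at 296 and 289 against 108 CPM (log2 fold 1.44, SE 0.25, edgeR adjusted p = 1.62e-07). Pold2, which holds the subunits together, was not called (log2 fold 0.34), but it passed on log2(RPKM + 1) (limma adjusted p = 0.0213). Pold3, the subunit that binds the clamp, stood at 18.9 and 19.1 against 27.5 CPM (log2 fold −0.53, SE 0.26, edgeR adjusted p = 0.0919). It passed on the lower side when genes under a mean of 10 CPM were left out (edgeR adjusted p = 0.0442). Pold4, which is not a member, was not called (log2 fold −0.09).

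For DNA polymerase epsilon, which copies mainly the leading strand, messages of both subunits among the members, its catalytic subunit and Pole2, were called higher. Pole, the catalytic one, stood at 88.8 and 98.7 against 42.7 CPM (log2 fold 1.13, SE 0.26, edgeR adjusted p = 0.0001). Pole2 stood at 18.7 and 18.9 against 8.88 CPM (log2 fold 1.08, SE 0.30, edgeR adjusted p = 0.00162). Per length Pole stood at 6.67, 7.62 and 2.49 RPKM and Pole2 at 5.44, 5.65 and 2.0 RPKM in ezrin replicates 1 and 2 and IgG. The small subunits Pole3 and Pole4, which are not members, pointed the other way: Pole3 was called lower (log2 fold −0.93, edgeR adjusted p = 0.00103), and Pole4 had a log2 fold of −0.52 and was not called (edgeR adjusted p = 0.0828).

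Of the clamp loader RFC, 1 of 5 subunits was called higher, again close to the 19.0% of all genes, with a median log2 fold of 0.35. Rfc3, a small subunit, stood at 40.9 and 43.3 against 27.0 CPM (log2 fold 0.64, SE 0.26, edgeR adjusted p = 0.0409). It was not called by DESeq2 (adjusted p = 0.114), after cyclic loess (limma adjusted p = 0.0619) or when genes under a mean of 10 CPM were left out (edgeR adjusted p = 0.0985). Rfc5, another small subunit, stood at 24.6 and 20.03 against 33.8 CPM and fell just outside the threshold (log2 fold −0.59, SE 0.25, edgeR adjusted p = 0.0503). It passed on the lower side with protein-coding genes only (edgeR adjusted p = 0.0485) and when genes under a mean of 10 CPM were left out (edgeR adjusted p = 0.0212).

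Rfc1, the large subunit (0.43), Rfc2 (0.29) and Rfc4 (0.35) had log2 folds above zero that were not called. On log2(RPKM + 1) Rfc1 passed (limma adjusted p = 0.0263). In RPKM the 5 subunits ran from 4.42 to 9.51 in ezrin replicate 1, from 3.70 to 11.0 in replicate 2 and from 3.19 to 5.81 in IgG. In all 3 libraries every RFC subunit was below every subunit of MCM2-7 per length.

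Messages of the clamp that RFC loads, and of the enzymes that finish the lagging strand, were higher in every case. Pcna, the sliding clamp, stood at 361 and 402 against 176 CPM (log2 fold 1.12, SE 0.24, edgeR adjusted p = 3.11e-05). Lig1, the ligase that seals the nicks, stood at 185 and 191 against 72.1 CPM (log2 fold 1.38, SE 0.25, edgeR adjusted p = 1e-06). Fen1, the nuclease that trims the flaps, had a log2 fold of 1.27. Pcna was the member with the highest level per length in all 3 libraries, at 126, 144 and 47.7 RPKM.

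RPA covers the single strands that the helicase exposes. Its large subunit Rpa1 stood at 310 and 286 against 130 CPM (log2 fold 1.19, SE 0.24, edgeR adjusted p = 1.31e-05), and Rpa2 was also called (0.72). Rpa3, the small subunit, stood at 12.6 and 17.8 against 10.8 CPM, a log2 fold of 0.49 (SE 0.30) that missed the threshold (edgeR adjusted p = 0.186). On log2(RPKM + 1) it passed (limma adjusted p = 0.0364).

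Messages of the proteins that steady the fork were all higher. Wdhd1, which tethers polymerase alpha to the helicase, stood at 86.2 and 102 against 30.6 CPM (log2 fold 1.62, SE 0.27, edgeR adjusted p = 3.93e-08). Tipin stood at 46.6 and 52.4 against 28.0 CPM (log2 fold 0.82, SE 0.26, edgeR adjusted p = 0.00764). Timeless, which pairs with Tipin in the fork protection complex, had a log2 fold of 1.41.

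Ratios between genes of the same library do not depend on a single scaling factor per library, but they can carry a trend of fold with level. Counts of MCM2-7 over counts of ORC were 14.6 (95% interval 14.1 to 15.1) and 12.7 (12.2 to 13.2) in the ezrin libraries and 4.32 (4.10 to 4.55) in IgG. Over RFC they were 12.9 (12.4 to 13.3) and 12.5 (12.1 to 13.0) against 5.14 (4.86 to 5.44). The helicase messages thus stood higher relative to both complexes in each ezrin library than in IgG, by more than counting error. Since the median folds above place MCM2-7 well over ORC and RFC in the same counts, the direction of these ratios was already given.

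Pairs within a complex shifted too, and these pairs were chosen after their values were seen. Dbf4 over Cdc7 was 3.4 (3.09 to 3.73) and 3.26 (2.97 to 3.58) in ezrin against 8.70 (7.43 to 10.2) in IgG. Orc2 over Orc1 was 4.59 (4.0 to 5.29) and 5.17 (4.44 to 6.03) against 13.8 (10.6 to 18.2), and Pold1 over Pold3 was 15.6 (14.1 to 17.4) and 15.1 (13.5 to 17.0) against 3.92 (3.42 to 4.5). Cdt1 over Gmnn showed no such separation, at 3.46 (3.25 to 3.69) and 2.06 (1.92 to 2.20) against 3.07 (2.71 to 3.48), with IgG between the ezrin libraries.

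**Figure D3:**
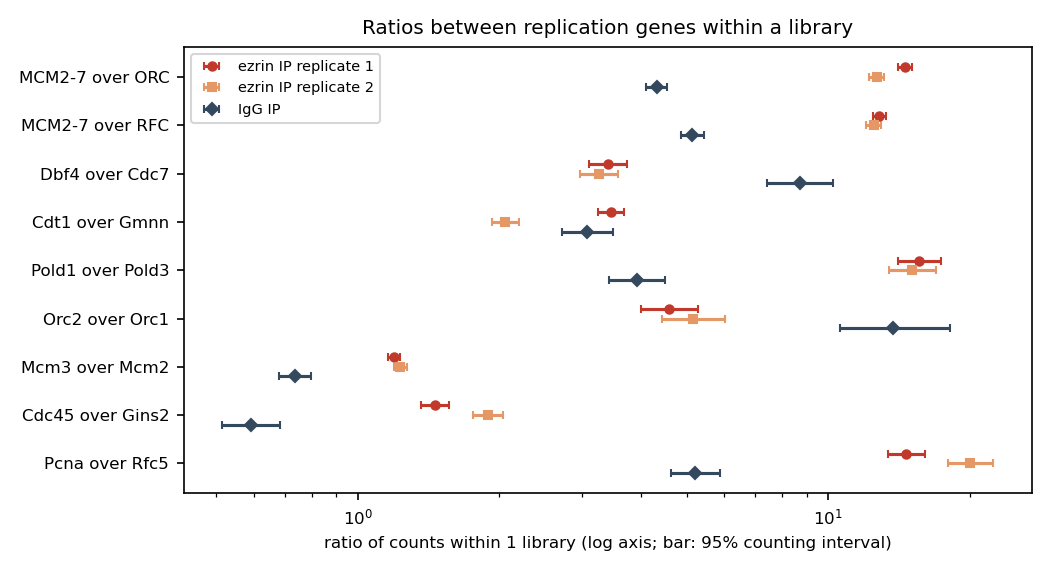
Ratio of counts between pairs of genes or complexes within each library on a log axis, with 95% counting intervals. For each ratio other than Cdt1 over Gmnn, the ezrin libraries lie on the same side of IgG, with no overlap with its interval. The gene pairs were chosen after their values were seen, so this separation is a description only.

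**Figure D4:**
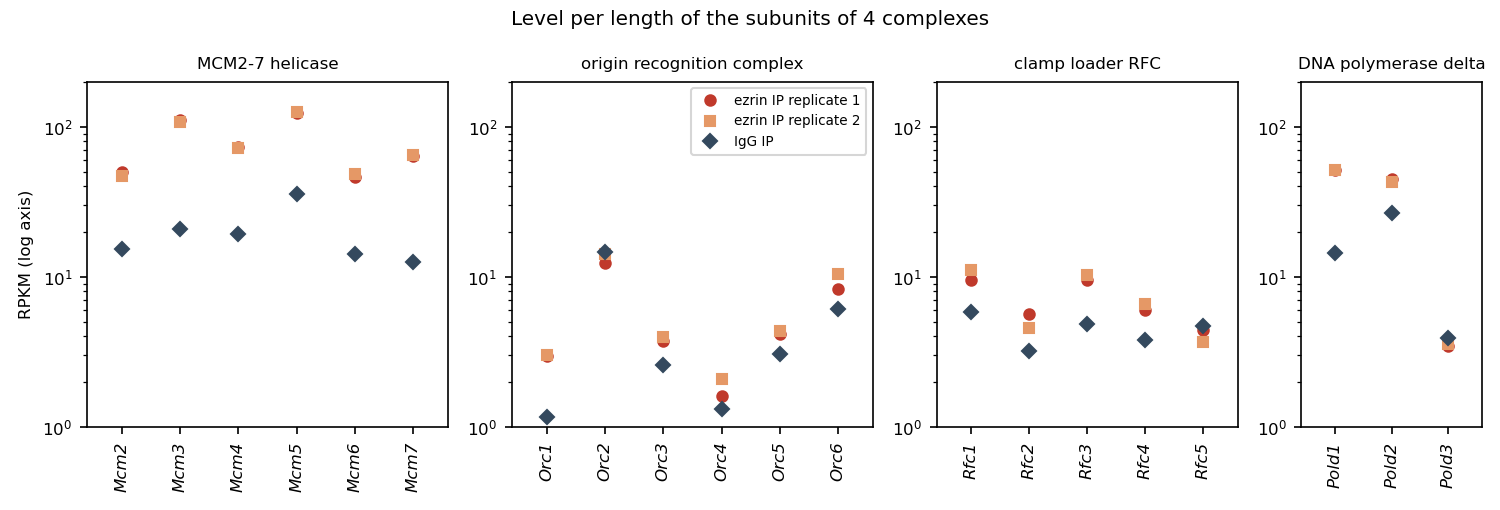
Deposited RPKM of the subunits of MCM2-7, ORC, RFC and DNA polymerase delta in each library on a log axis. The 6 helicase subunits lie between 46.5 and 125 in ezrin and between 12.5 and 35.3 in IgG, while IgG lies above both ezrin libraries for Orc2, Rfc5 and Pold3.

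Members with a higher mean level tended to have a higher fold. Among the 10 members with a mean of 200 to 500 CPM, all 10 were called higher, where 40.5% of all genes in that range were. Of 5 members at 100 to 200 CPM, 4 were called higher against 32.9% of all genes there, and of 13 members at 50 to 100 CPM, 8 were against 24.9%. At 20 to 50 CPM 6 of 12 were called higher against 20.6%, and at 5 to 20 CPM 3 of 6 were against 12.5%.

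The members' median log2 fold in these ranges, from the highest CPM to the lowest, was 1.39, 0.84, 0.97, 0.47 and 0.62. The median of all genes was 0.34, 0.22, 0.08, 0.04 and −0.08 in the same order. Across the 46 members, log2 fold and log2 mean CPM had a Spearman rho of 0.58 and a Pearson r of 0.50, against a rho of 0.26 over all 12478 genes. Mean CPM contains the ezrin libraries that set the fold, and with the log2 CPM of IgG alone, which also enters the fold, the members' values were 0.29 and 0.19 and the rho of all genes was 0.09. These are descriptions only. With gene length, inferred from count over RPKM, rho was 0.07 and r was 0.01. After cyclic loess, which removes a trend with level, the members' median was 0.83, with 29 called higher and 2 lower by limma.

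**Figure D5:**
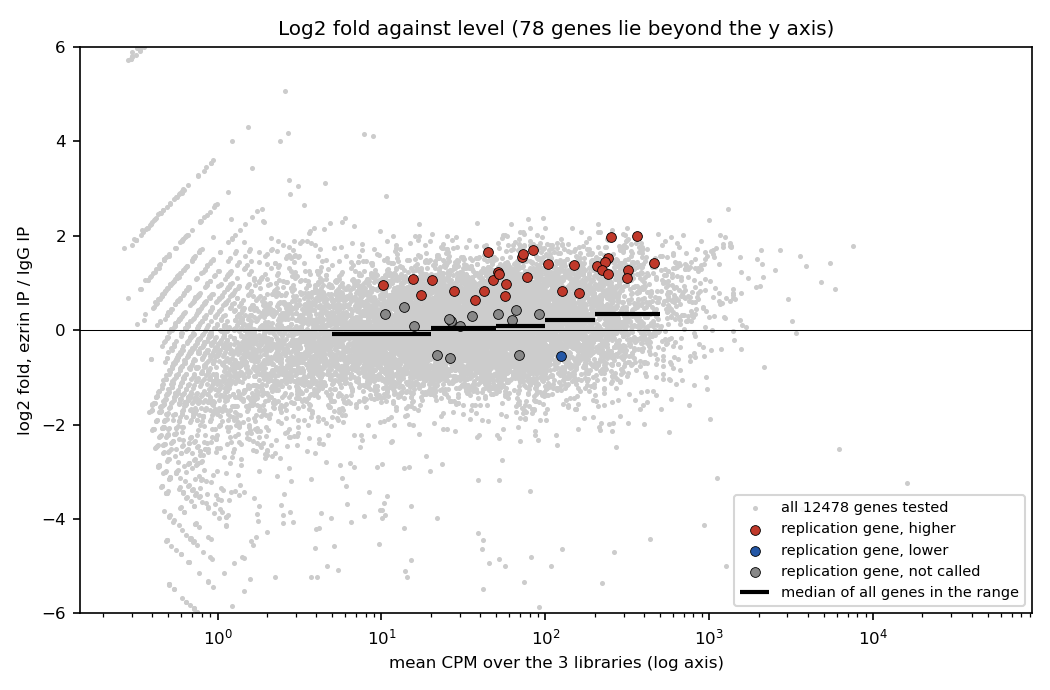
Log2 fold of ezrin over IgG against mean CPM on a log axis for the 12478 genes tested, with the 46 replication genes in colour and bars at the median of all genes in each CPM range. The 10 members at 200 to 500 CPM all lie above the bar of 0.34.

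Genes that work beside these proteins were taken from 4 further lists. Of the 59 genes in them, 26 were called higher and 3 lower, with a median log2 fold of 0.39, where 19.0% and 17.4% of all genes were called. In percent of each list, those called higher were 26.3 of the origin factors, 52.4 of the fork factors, 33.3 of the nucleotide genes and 70.0 of the chromatin assembly genes. Of 19 other origin factors, 5 were called higher and none lower, with a median of 0.20, among them Ddb1, a subunit of the ligase that degrades Cdt1, at 2677 ± 103 CPM (SD, n = 2) against 819 CPM (log2 fold 1.71). Of 21 other fork factors, 11 were called higher and 2 lower, with a median of 0.64.

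In the fork list Dscc1, with 44 counts in IgG, was highest (log2 fold 1.80), and Top2a, which untangles DNA, was the most abundant (0.96). Pole3, a small subunit of polymerase epsilon, was lowest (−0.93). Chtf8 was the other gene called lower there (log2 fold −0.77, edgeR adjusted p = 0.00407). Of 10 chromatin assembly genes, 7 were called higher and none lower, with a median of 0.71. Those called ran from the histone chaperone Rbbp7 (1.5) to Slbp, which binds histone messages (0.59), with Uhrf1, a reader of methylated DNA, the most abundant (1.34). Of 9 genes of nucleotide supply, 3 were called higher and 1 lower, with a median of 0.32. Rrm1, the large subunit of ribonucleotide reductase, was both the most abundant and the highest (1.47), and Dck, a nucleoside kinase, was lower (−1.59).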

How the data were processed

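RNA from 2 anti-ezrin and 1 IgG immunoprecipitation of the same K7M2 derivative was sequenced as paired reads after rRNA depletion, per the labels' protocols, although the labels also name polyA RNA. The authors deposited raw read counts per gene and RPKM per gene, on GRCm38 per the submitters' processing notes; the aligner, the counter, its use of strand and the gene lengths are not stated by those sources. Counts were tested with edgeR 4.0.16 (quasi-likelihood, TMM, filterByExpr by group, R 4.3.3) over 12478 genes, with Benjamini-Hochberg adjustment and a threshold of 0.05, after a test on simulated data. There, 58% of genes with a true log2 fold of 1 were called, and 52% at −1. Only 200 genes were changed per simulated set, all among the better counted. In these data 19.0% and 17.4% of all genes were called higher and lower, which makes the adjustment less strict. The simulated shares therefore do not give the sensitivity of the test here. A gene not called may still differ. The simulation gave all genes and libraries a common spread, so it could not check whether they differ in spread. With 1 residual degree of freedom the edgeR fit pooled the spread over genes, and a gene's own spread had no weight. The IgG library is assumed to vary like the ezrin ones. An exact permutation test of 2 against 1 cannot go below p = 0.333. Alternatives used DESeq2 1.42.0, limma 3.58.1, other scalings and other filters. The deposited RPKM served for levels per length and, as log2(RPKM + 1), for 1 alternative. Full values are given for the highest and lowest log2 fold of each complex, and others by log2 fold, with a few more values where a sentence turned on them. The members, complexes and lists were chosen with earlier results of these data known.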

Additional observations from a re-analysis of the deposited data

How the results depend on the processing

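The count of members called higher was 31 and stayed between 27 (DESeq2) and 35 (log2(RPKM + 1), limma) under the 8 alternatives to edgeR with TMM. The count called lower was 1 and became 0 with RLE size factors, library size only, no filter beyond 1 count, DESeq2 and log2(RPKM + 1), 2 after cyclic loess or with protein-coding genes only, and 4 when genes under a mean of 10 CPM were left out. The members' median log2 fold of 0.97 became 1.09 with library size only, 0.83 after loess, 1.06 with no filter, 0.86 at 10 CPM or more and 1.13 on RPKM, and that of MCM2-7 went from 1.48 to 1.60, 1.15, 1.57, 1.37 and 1.83 in the same order. For RFC it went from 0.35 to 0.47, 0.31, 0.44, 0.23 and 0.61. For helicase activation it went from 0.90 to 1.02 (library size), 0.99 (no filter), 0.79 (10 CPM) and 1.03 (RPKM), and for ORC from 0.15 to 0.27 (library size), 0.035 (10 CPM) and 0.41 (RPKM). Library size only moved the median of all genes by 0.12 and RPKM by 0.24. Of all genes DESeq2 called 8.82% lower and RPKM 7.73%, against 17.4% by edgeR. Without either ezrin replicate in turn, a value with no test, the medians ran from 0.87 to 1.0 for all members, 0.074 to 0.26 for ORC, 1.48 to 1.49 for MCM2-7, 0.78 to 0.91 for activation, 1.03 to 1.34 for polymerase alpha and 0.33 to 0.39 for RFC. Orc4 and Orc5, never called, changed sign at 10 CPM or more (−0.014 and −0.020). Calls of 33 members held under all 8 alternatives, 26 of them called higher and 7 not called. No paired analysis was possible because IgG has 1 library, so the groups share fewer than 2 replicate numbers. Depth limits Orc1, with 60 counts in IgG, and Rfc4 and Pole2, with 85 each. The causes of these shifts were not tested.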
